A study of Mus musculus with 6 samples.

Results

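The enzymes that bring pyruvate into the citric acid cycle and turn the cycle were examined in hippocampal tissue from Glud1 Tg mice and their wt controls. The list has 34 genes that were chosen by function, but with earlier results of these data known. It covers the mitochondrial pyruvate carrier, the pyruvate dehydrogenase complex and its kinases, pyruvate carboxylase and the malic enzymes. It also covers the enzymes of the cycle from citrate synthase to malate dehydrogenase, and ATP citrate lyase. A member was measured through the probesets (groups of short probes for 1 transcript) that the array annotation assigns to that gene alone, and its brightest probeset by mean signal stands for the gene. This gave 33 members among 13854 genes. Mpc2, which encodes the partner of Mpc1 in the pyruvate carrier, had no such probeset and was not analysed here.

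The 3 Tg mice carry an added Glud1 gene under the promoter of neuron-specific enolase, which drives it in neurons. The 3 wt mice lack it. All 6 were 9-month-old C57BL/6 males without treatment, each with 1 Affymetrix Mouse Genome array of total RNA from homogenized hippocampus. Glud1 encodes glutamate dehydrogenase, which converts glutamate to 2-oxoglutarate, an intermediate of the cycle, so the design asks whether messenger RNAs of the neighbouring enzymes differ when neurons carry more of this gene.

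In the brain, glucose is broken down to pyruvate, the pyruvate carrier moves it into mitochondria, and the pyruvate dehydrogenase complex converts it to acetyl-CoA. Citrate synthase joins acetyl-CoA to oxaloacetate, and the following dehydrogenases pass electrons to the respiratory chain while oxaloacetate is made anew. Neurons draw 2-oxoglutarate from the cycle for transmitter glutamate, and astrocytes, which hold most of the brain's pyruvate carboxylase, refill it.

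Signals are MAS5 intensities on a linear scale, which compare arrays for 1 probeset but not the abundance of different genes. Fold changes are Tg minus wt on the scale log2(signal + 16), tested with limma, a linear model that shares the estimate of spread across probesets. A gene was called at a p under 0.05 after Benjamini-Hochberg adjustment over 31076 kept probesets. Over the kept probesets, the median signal lay between 309.6 and 318.9 on the Tg and between 297.3 and 305.4 on the wt arrays. Of the 3 control probesets of 18S ribosomal RNA, the 3' one stood high on wt 1 (13960.1) and wt 2 (10375.2), against 975.5 to 3312.8 on the other arrays, and the middle one gave 1183.1 and 1150.7 against 377.1 to 718.0. At the 5' one wt 1 had 7479.8, but Tg 3 (3385.1) lay above wt 2 (3242.4). All 6 hippocampal excitatory neuron markers were measured, each with a mean signal of at least 331.1. Of these, 5 were higher in Tg mice and 3 had an unadjusted limma p under 0.05, with a median log2 fold change of 0.23, and their summed signal was 19514 to 21018 in Tg and 17054 to 19875 in wt mice, where wt 3 lay among the Tg values. The summed signal of 5 general neuronal markers overlapped (88671 to 93685 in Tg, 89299 to 95894 in wt). Lower sums without overlap were seen in Tg mice for astrocyte markers (5 of 6 lower, 46995 to 48975 against 52931 to 53980), for GABAergic interneuron markers (5 of 5 lower, 15555 to 17894 against 18644 to 22525), for markers of the cortex next to the hippocampus (4 of 4 measured of 5 lower, 2483 to 3133 against 4067 to 4990) and for microglia markers (3 of 5 lower, 10255 to 10682 against 10906 to 11919). Of all genes, 55.9% had a negative log2 fold change, as had 66.3% of those with a mean signal of at least 4000. The sums overlapped for oligodendrocyte markers (59368 to 73229 in Tg, 61441 to 73582 in wt) and endothelial markers (1386 to 1904 in Tg, 1766 to 1780 in wt). Choroid plexus markers summed to 4396 on Tg 3 and to between 41740 and 64402 on the other 5 arrays. In whole tissue, fewer cells of a type and less RNA per cell cannot be told apart. The part of these differences in the values below was not tested.

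At their brightest probesets, the measured messenger RNAs of pyruvate entry and of the cycle had estimated differences under 1.3-fold between Tg and wt hippocampus, except Idh1. The intervals of some members reach beyond that size, as for Pcx (0.692-fold to 1.02-fold) and Me3 (0.969-fold to 1.47-fold). Dimmer probesets of some further members exceeded it, such as that of Suclg2 (log2 fold change -0.47), described below. At the brightest probeset 23 members had a lower and 10 a higher mean in Tg mice, with log2 fold changes from -0.41 for Idh1 to 0.26 for Me3 and a median of -0.063. limma called 0 members, and it called 0 probesets of the whole array (0.0%). At an unadjusted p under 0.05 there were 3 members lower in Tg mice, Idh1, Sdhb and Mdh2, and 0 higher, against 4.97% of all genes lower and 2.9% higher. The 3 lower members are 9.09% of the list. At a 1.3-fold difference together with a p under 0.05, the size and p limits named in the study's methods, but with limma's p and without the false discovery rate limit those methods add, 1 member was lower (Idh1) and 0 higher, against 2.4% and 1.94% of all genes. Cyber-T, a test used in the study, called 0 members and 65 of all probesets (0.209%).

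The intervals show how large a difference the arrays leave room for. In 24 of the 33 members (72.7%) the 95% limma interval, which is not adjusted over genes, lay within a 1.3-fold difference in either direction, against 27.4% of all genes. All 13 members with a mean signal of at least 4000 had such an interval, where 82.0% of all genes of that brightness did. With each array centred on its median, it was found in 18 of the 33 members, against 22.3% of all genes. Of the 13 bright members 9 then had it, against 66.6% of all bright genes. After quantile normalization the counts stayed at 24 and 13. The median SE of the members was 0.095 and that of all genes 0.17, both on the log2 scale.

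**Figure D1:**
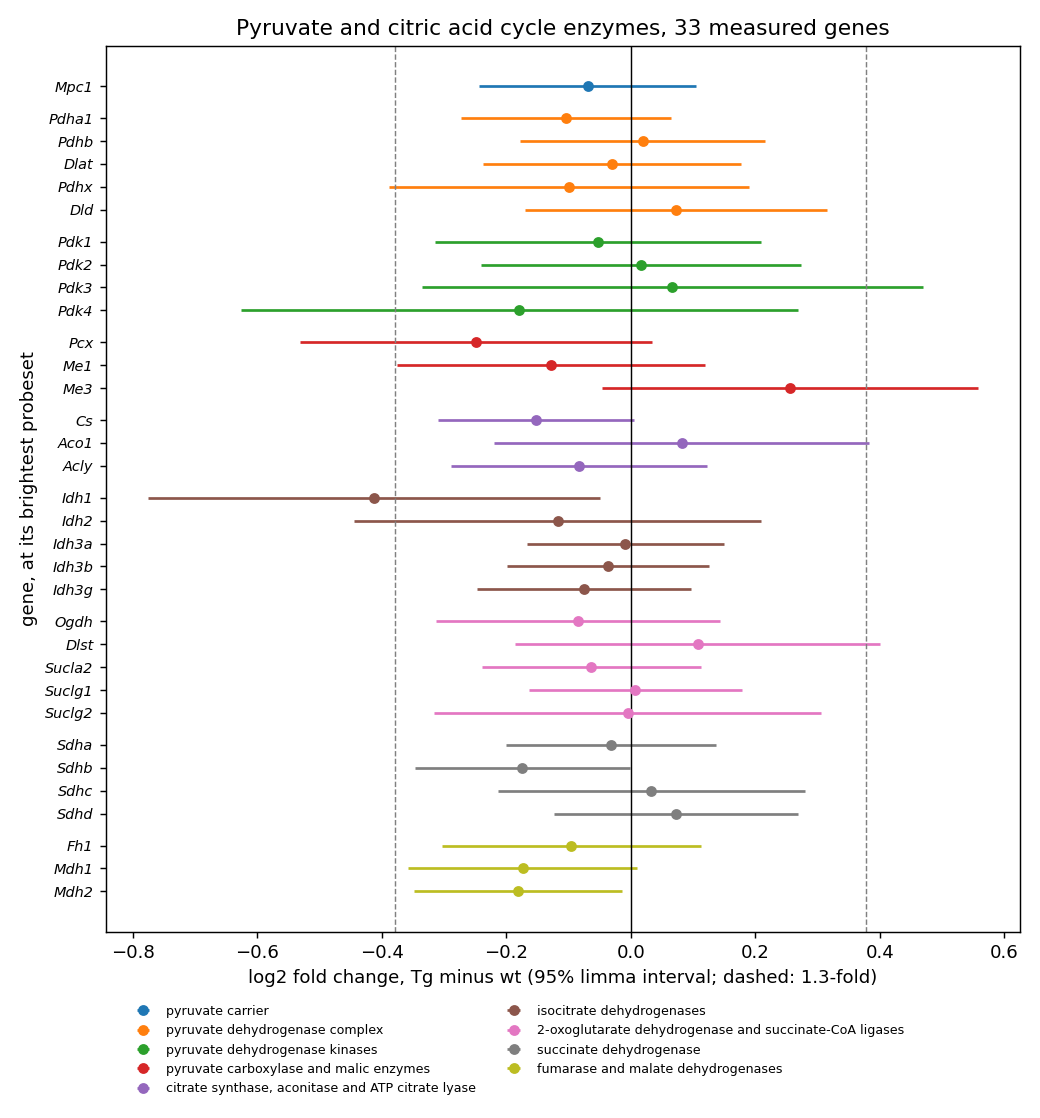
Log2 fold change (Tg minus wt, horizontal axis) of each of the 33 measured members at its brightest probeset, with its 95% limma interval (n = 3 arrays a group), ordered and coloured by role; dashed lines mark a 1.3-fold difference. Points lie between -0.41 and 0.26, and the intervals of Idh1, Sdhb and Mdh2 are the only ones that leave out 0.

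In the pyruvate carrier, Mpc1, an inner membrane protein, had signals of 4656.6, 4945.2 and 4398.7 on the Tg arrays and 4758.2, 4934.3 and 4984.5 on the wt arrays (probeset 1453651_a_at). The groups overlapped, with Tg 2 second only to wt 3, and the log2 fold change was -0.07 (SE 0.080, limma adjusted p = 0.813).

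Of the 5 members of the pyruvate dehydrogenase complex, 3 were lower and 2 higher in Tg mice, with a median log2 fold change of -0.03. Pdha1, the catalytic subunit that its kinases phosphorylate, had signals of 6023.2, 6501.8 and 6457.7 on the Tg arrays and 7204.7, 6672.8 and 6538.3 on the wt arrays (probeset 1418560_at). All Tg values lay below all wt values, but Tg 2 and wt 3 were nearly equal. The log2 fold change was -0.10 (SE 0.078, limma adjusted p = 0.694). A dimmer Pdha1 probeset (1449137_at) went the other way, with 1644.7, 2247.9 and 2148.7 on the Tg arrays, 1654.5, 1969.7 and 1728.7 on the wt arrays and a log2 fold change of 0.16 (limma adjusted p = 0.712). The direction for Pdha1 therefore depends on the probeset.

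Pdhb, the other subunit of the first enzyme, had a mean signal of 5724.6 ± 375 for Tg mice against 5656.2 ± 506 for wt mice (SD, n = 3 each). Dlat, the acetyltransferase core, had 1956.9 ± 139 and 1995.3 ± 42.9. For Pdhx, which anchors Dld to that core, the means were 682.5 ± 52.2 and 733.2 ± 73.9. Dld, the lipoamide dehydrogenase that the 2-oxoglutarate dehydrogenase complex also uses, had 1606.5 ± 75.8 and 1532.9 ± 184. All 4 genes overlapped between groups, and each difference was smaller than the sum of the SDs of its groups.

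The pyruvate dehydrogenase kinases switch the complex off. Of the 4, 2 were lower and 2 higher in Tg mice, with a median of -0.02. Pdk4, the kinase known for its induction by fasting, had signals of 284.8, 395.3 and 273.4 on the Tg arrays and 288.3, 398.4 and 395.7 on the wt arrays (probeset 1417273_at). Low and high values occurred in both groups, with Tg 1, Tg 3 and wt 1 low. This gave a log2 fold change of -0.18 (SE 0.21, limma adjusted p = 0.812), with an interval from -0.63 to 0.27. Pdk1, which hypoxia induces, had 859.9 ± 64.1 in Tg and 891.8 ± 59.0 in wt mice. Pdk2, a widely expressed kinase, had 1534.2 ± 184 and 1513.0 ± 127, and Pdk3 had 535.0 ± 67.9 and 516.7 ± 120.

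Pyruvate carboxylase and the malic enzymes link pyruvate to the 4-carbon acids of the cycle. Pcx, which makes oxaloacetate from pyruvate, had signals of 826.3, 944.6 and 728.0 on the Tg arrays and 945.0, 1065.7 and 955.0 on the wt arrays (probeset 1416383_a_at). All Tg values lay below all wt values, with Tg 2 and wt 1 less than 1 signal unit apart. This was a log2 fold change of -0.25 (SE 0.13, limma adjusted p = 0.571), with an interval from 0.692-fold to 1.02-fold. Without Tg 3 it was -0.16. The summed astrocyte markers, given above, were lower on the same arrays, and their part in the Pcx values was not tested.

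The array carries 4 further Pcx probesets as controls, spread from the 3' end to the 5' end of the messenger RNA and kept out of the limma fit. The 3' control had 748.9, 742.5 and 678.7 in Tg and 724.9, 927.2 and 863.5 in wt mice, so wt 1 lay among the Tg values. The 5' control was dimmer, with 223.1, 255.4 and 152.5 against 185.0, 106.0 and 200.1. Its mean was higher in Tg mice (210.3 ± 52.6 against 163.7 ± 50.5), opposite to the brightest probeset. The middle controls also had higher Tg means (232.5 ± 47.0 against 214.7 ± 28.6, and 239.1 ± 58.6 against 168.6 ± 49.8). Only the 3' control had a lower Tg mean (723.4 ± 38.8 against 838.5 ± 103). At all 4 controls the groups overlapped. The ratio of the 3' to the 5' signal, which grows as RNA is degraded or labelling falls short, averaged 3.57 ± 0.794 for Tg mice against 5.66 ± 2.68 for wt mice (SD, n = 3; exact permutation test, two-sided, p = 0.3, where 0.1 is the smallest possible). The spread came from wt 2, where the ratio was 8.75 against 2.91 to 4.45 on the other arrays.

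Me3, a mitochondrial malic enzyme, had the highest fold change of the list. Its signals were 684.5, 876.9 and 813.6 on the Tg arrays and 597.4, 694.4 and 683.3 on the wt arrays. Tg 1 lay between wt 2 and wt 3, and the other Tg arrays lay above all wt arrays. Its log2 fold change was 0.26 (SE 0.14, limma adjusted p = 0.587). Me1, the cytosolic malic enzyme that supplies NADPH, had 1297.3 ± 46.9 in Tg and 1425.1 ± 172 in wt mice, with wt 1 well above the other arrays.

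**Figure D2:**
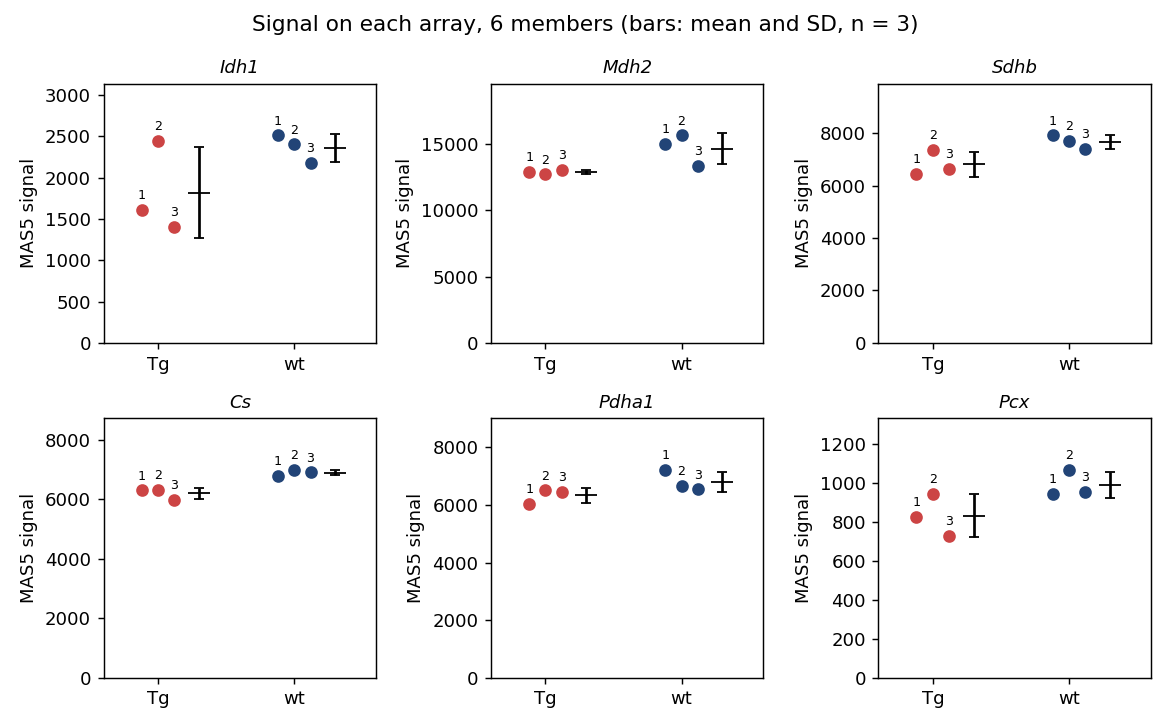
MAS5 signal (vertical axis, linear, from 0) of Idh1, Mdh2, Sdhb, Cs, Pdha1 and Pcx at their brightest probesets on each Tg and wt array, numbered by mouse, with the mean and SD of each group (n = 3). Tg 2 reaches the wt range only for Idh1, while in the other panels the 3 Tg points sit just below the 3 wt points.

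Citrate synthase, aconitase and ATP citrate lyase make, rearrange and split citrate. Cs had signals of 6303.3, 6333.1 and 5993.9 on the Tg arrays and 6806.0, 6984.4 and 6912.3 on the wt arrays (probeset 1450667_a_at). The groups did not overlap, and the Tg mean was 90.0% of the wt mean. The log2 fold change was -0.15 (SE 0.072, limma adjusted p = 0.531).

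The other Cs probesets did not repeat that separation in the same direction. At 1422578_at the signals were 6179.6, 5837.2 and 5966.4 in Tg and 6102.7, 6715.8 and 6147.9 in wt mice, with Tg 1 above wt 1, and the log2 fold change was -0.08 (limma adjusted p = 0.785). At 1422577_at they were 2316.9, 2197.8 and 2201.5 in Tg against 1973.0, 1940.0 and 2001.3 in wt mice, and the log2 fold change was 0.18 (limma adjusted p = 0.540). Here every Tg array lay above every wt array, opposite to the brightest probeset of the same gene.

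Aco1, the cytosolic aconitase that doubles as an iron sensor, had 1262.8 ± 110 in Tg and 1202.4 ± 227 in wt mice. Acly, which splits cytosolic citrate for lipid and acetyl-CoA supply, had 2955.2 ± 149.8 and 3137.2 ± 282 at its brightest probeset, a log2 fold change of -0.08. A further Acly probeset (1439459_x_at) had 2289.6, 2094.4 and 2079.0 in Tg and 2334.9, 2847.2 and 2551.8 in wt mice, all Tg values below all wt values. Its log2 fold change was -0.25 (SE 0.10), and its limma adjusted p of 0.449 was the lowest of all member probesets. At 1425326_at the signals were 868.0, 970.0 and 1187.5 against 902.9, 853.0 and 768.5, and the log2 fold change was 0.25 (limma adjusted p = 0.597). Neither direction for Acly passed the test.

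All 5 isocitrate dehydrogenase members had a negative log2 fold change, with a median of -0.07, but Idh3a was positive after quantile normalization (0.03). Idh1, the cytosolic NADP-dependent enzyme, had signals of 1612.0, 2440.7 and 1402.6 on the Tg arrays and 2510.1, 2401.1 and 2177.0 on the wt arrays (probeset 1422433_s_at). Tg 1 and Tg 3 lay below all wt arrays, while Tg 2 lay between wt 2 and wt 1. The Tg mean was 77.0% of the wt mean, and the log2 fold change was -0.41 (SE 0.17, interval from 0.584-fold to 0.966-fold), with an unadjusted limma p of 0.029 and an adjusted p of 0.460. With Cyber-T the adjusted p was 0.245, and over all alternatives it ran from 0.147 to 0.963.

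The Idh1 value rested on single arrays. It was -0.64 on the log2 scale without Tg 2 and -0.25 without Tg 3. At the further Idh1 probeset (1419821_s_at) the signals were 930.5, 979.4 and 962.9 in Tg and 885.7, 1198.8 and 990.6 on the wt arrays, a log2 fold change of -0.09 (limma adjusted p = 0.863). At this dimmer probeset wt 1, not Tg 1 or Tg 3, was lowest.

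Idh2, the mitochondrial NADP-dependent enzyme, had 840.6 ± 109 in Tg and 916.7 ± 155 in wt mice. The NAD-dependent enzyme of the cycle itself is built from Idh3a, Idh3b and Idh3g. Idh3a, the catalytic subunit, had 5980.5 ± 117 and 6016.4 ± 80.5, and its coefficient of variation over the 6 arrays, 1.53%, was the lowest of the members. Idh3b had 7530.7 ± 293 and 7722.1 ± 314, and Idh3g had 4452.2 ± 133 and 4690.8 ± 203. The 95% intervals of all 3 subunits lay within 0.843-fold and 1.11-fold.

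Around 2-oxoglutarate, the product of glutamate dehydrogenase, 3 of 5 members were lower in Tg mice and the median log2 fold change was -0.0051. Ogdh, which decarboxylates 2-oxoglutarate, had signals of 2262.3, 2542.2 and 2132.7 on the Tg arrays and 2197.6, 2534.0 and 2629.3 on the wt arrays (probeset 1451274_at). The groups interleaved, with wt 1 among the lowest values and Tg 2 among the highest. Their log2 fold change was -0.08 (SE 0.10, limma adjusted p = 0.828), with an interval from -0.31 to 0.14. Dlst, the succinyltransferase core of that complex, had 1642.1 ± 275 in Tg and 1517.0 ± 182 in wt mice.

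The succinate-CoA ligases convert succinyl-CoA to succinate and make a nucleoside triphosphate. Suclg1, the subunit that both forms share, had 4161.5 ± 90.6 in Tg and 4140.8 ± 148 in wt mice, with an interval from 0.893-fold to 1.13-fold. Sucla2, the ATP-forming subunit, had 4612.1 ± 185 and 4820.8 ± 264. Suclg2, the GTP-forming subunit, had 769.4 ± 114 and 769.7 ± 81.5. At a dimmer Suclg2 probeset (1427441_a_at) the signals were 122.9, 227.8 and 153.4 in Tg and 233.5, 258.1 and 206.9 on the wt arrays, a log2 fold change of -0.47 (limma adjusted p = 0.589), with Tg 2 above wt 3.

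Succinate dehydrogenase is the enzyme that the cycle shares with the respiratory chain as its complex II. Its 4 subunits split evenly, with 2 lower and 2 higher in Tg mice and a median log2 fold change of 0.00061. Sdhb, the iron-sulphur subunit, had signals of 6433.0, 7349.7 and 6634.6 on the Tg arrays and 7909.5, 7715.7 and 7388.5 on the wt arrays (probeset 1418005_at). All Tg values lay below all wt values, with Tg 2 close to wt 3. The log2 fold change was -0.17 (SE 0.079, interval from 0.786-fold to 0.999-fold), with an unadjusted limma p of 0.048 and an adjusted p of 0.513.

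Sdha, the flavoprotein that oxidises succinate, had 8678.3 ± 118 in Tg and 8889.0 ± 677 in wt mice at its brightest probeset, a log2 fold change of -0.03. A further Sdha probeset (1426689_s_at) had 5560.0, 5575.2 and 5693.1 in Tg and 6276.7, 6603.3 and 6206.3 in wt mice. The groups did not overlap there, and the log2 fold change was -0.18 (SE 0.074), with an unadjusted limma p of 0.030 and an adjusted p of 0.460. Sdhc and Sdhd anchor the enzyme in the inner membrane. Sdhc had 2680.4 ± 254 in Tg against 2626.3 ± 339 in wt mice, and Sdhd had 2552.8 ± 168 and 2424.5 ± 59.7.

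The promoters of 3 of these subunits are shown because they act in 1 complex and yet differ in the letters of NRF-1, a transcription factor known for its sites in genes of mitochondrial enzymes. Each line is the 120 bases before the RefSeq start of the gene on build GRCm38.p6, read 5′ to 3′ on the gene's strand, with the NRF-1 letters in capitals: GCGC, any base, then TGCGC, or the reverse complement.
Sdha, chr13:74350241-74350360, minus strand: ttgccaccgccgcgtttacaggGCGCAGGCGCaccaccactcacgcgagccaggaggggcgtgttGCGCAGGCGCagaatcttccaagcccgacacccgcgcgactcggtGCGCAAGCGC
Sdhb, chr4:140961151-140961270, plus strand: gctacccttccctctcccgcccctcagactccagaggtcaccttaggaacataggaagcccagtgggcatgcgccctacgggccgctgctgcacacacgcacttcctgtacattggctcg
Sdhd, chr9:50603850-50603969, minus strand: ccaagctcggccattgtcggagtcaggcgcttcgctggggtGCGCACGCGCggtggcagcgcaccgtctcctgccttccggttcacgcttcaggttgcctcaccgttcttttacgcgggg
The Sdha window holds the letters at 3 places and the Sdhd window at 1, while these letters are not in the Sdhb window.

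RefSeq windows from 250 bases before to 50 after the start were at hand for 32 of the 34 members (43 windows, without Idh3a and Sdhc). The NRF-1 letters, sought on both strands, were in windows of 4 members (Dld, Sdha, Sdhd and Sucla2) and in those of 5.19% of all 27025 genes. TNAAGGTCA, the letters of the oestrogen-related receptors, which drive genes of oxidative metabolism, were in 1 member (Sdhd) and in 1.43% of all genes. AAGATGGCG, the YY1 letters, were in 1 member (Idh3g) and in 1.64%. GGGGCGGGG, a GC box, was in 9 members (Idh1, Mdh2, Me1, Mpc1, Ogdh, Pdhb, Sdhb, Sucla2 and Suclg2) and in 12.9%. The median GC content was 62.0% in the members' windows and 52.7% in all 32851 windows. The letters are a description and no evidence of binding.

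Fumarase and the malate dehydrogenases close the cycle, and all 3 members had a negative log2 fold change, with a median of -0.17. Mdh2, the mitochondrial malate dehydrogenase, had signals of 12913.4, 12718.6 and 13084.5 on the Tg arrays and 15016.8, 15656.5 and 13333.4 on the wt arrays (probeset 1433984_a_at). The Tg arrays were tightly grouped below all wt arrays, and wt 3 lay nearer to them than to the other wt arrays. The log2 fold change was -0.18 (SE 0.077, interval from 0.785-fold to 0.990-fold), with an unadjusted limma p of 0.036 and an adjusted p of 0.479. A further Mdh2 probeset (1416478_a_at) had 11875.6, 9904.9 and 11260.3 in Tg and 12059.4, 13131.0 and 11769.8 on the wt arrays, a log2 fold change of -0.16 (limma adjusted p = 0.567), with Tg 1 above wt 3.

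Mdh1, the cytosolic enzyme, which carries reducing equivalents to mitochondria with Mdh2 in the malate-aspartate shuttle, had signals of 13556.4, 16428.5 and 15155.3 in Tg and 17488.0, 17549.2 and 15789.5 in wt mice. Only Tg 2 lay above wt 3, and the log2 fold change was -0.17 (SE 0.084, limma adjusted p = 0.540). Its dimmer kept probesets had log2 fold changes from -0.13 to 0.04. Fh1, which hydrates fumarate to malate, had 2500.5 ± 206 in Tg and 2669.1 ± 152 in wt mice.

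Across the members, agreement between probesets of 1 gene was limited. The 33 members have 80 annotated probesets, of which 68 were kept, and 21 members have several kept. In 13 of these 21, a total of 17 probesets had the sign opposite to the brightest. The widest gap was in Sdhd, whose dimmer probeset (1437489_x_at) had 367.3, 5.8 and 248.9 in Tg and 168.1, 417.5 and 364.6 in wt mice. Tg 2 stood far below the others there, and its log2 fold change was -1.26 (SE 0.81, limma adjusted p = 0.643) against 0.07 at the brightest. Aco1 had -0.39 at its dimmer probeset against 0.08, Idh2 had 0.47 against -0.12, Sucla2 had 0.31 against -0.06 and Pdhb had -0.15 against 0.02. In Dlst, 1 of the dimmer probesets had -0.75 against 0.11, in Idh3a 1 had 0.30 against -0.01, and in Acly the dimmest kept ones had 0.55 and 0.66 against -0.08. In Dlat and Pdk1 the opposite values lay between 0.03 and 0.06. None of these passed the test. The opposite probesets of Idh2, Sucla2 and Dlst and the dimmest kept ones of Acly had mean signals from 62.4 to 85.8, near the lowest kept, 48.8. The other opposite probesets had mean signals from 153.5 to 9247.1. How often probesets of 1 gene differ in sign over all genes was not counted. Of the 68, 5 had an unadjusted limma p under 0.05, all lower in Tg mice: the brightest probesets of Idh1, Sdhb and Mdh2, and the further ones of Sdha and Acly described above. The share of all kept probesets at that p was not counted, and several probesets of 1 gene are not independent, so the 5 are a description alone.

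**Figure D3:**
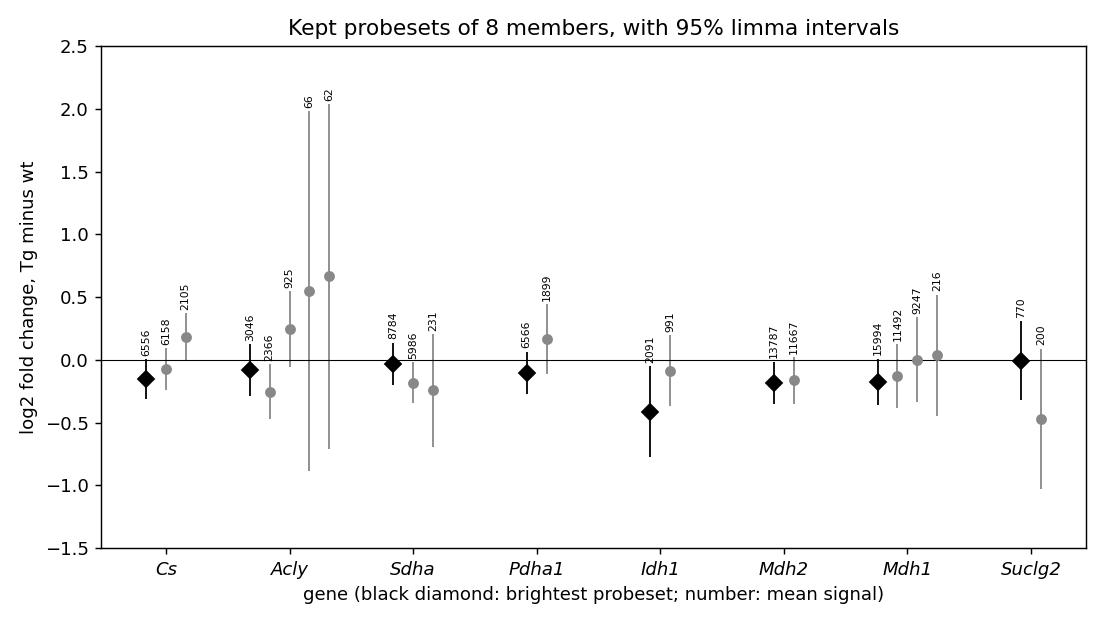
Log2 fold change (Tg minus wt, vertical axis) with 95% limma intervals of every kept probeset of 8 members; black diamonds are the brightest probesets, grey points the others in falling order of mean signal, which is printed above each. Cs, Acly, Pdha1 and Mdh1 have probesets on both sides of 0, while both Mdh2 probesets lie near -0.17.

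In 5 members (15.2%) all Tg values lay below all wt values, Cs, Sdhb, Mdh2, Pdha1 and Pcx, against 8.81% of all genes. In 0 members did all lie above, against 5.2%. A negative log2 fold change was found in 69.7% of the members and in 55.9% of all genes, and the median of all genes was -0.031 beside -0.063 in the members. Both shares grew with brightness in all genes: of the 990 genes with a mean signal of at least 4000, 66.3% had a negative log2 fold change and 17.9% lay wholly below wt. Of the 13 members that bright, 11 were negative and 4 lay wholly below, with a median of -0.07 beside -0.06 for all such genes. Of the 20 dimmer members, 12 were negative. Members that work in mitochondria (19 of 28 negative, median -0.04) and in the cytosol (4 of 5 negative, median -0.13) both had more negative than positive values.

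**Figure D4:**
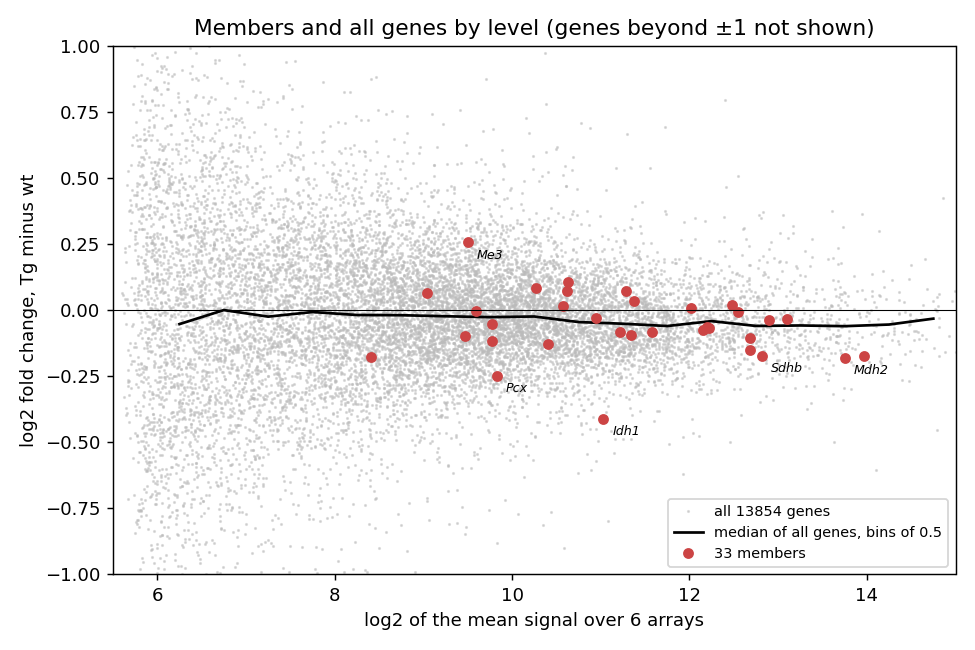
Log2 fold change (Tg minus wt, vertical axis) against the log2 of the mean signal over 6 arrays for the 33 members (red) and all 13854 genes at their brightest probesets (grey), with the median of all genes in bins of 0.5 (black line). The line runs slightly below 0 at the bright end, and most bright members lie near or below it.

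These counts moved with the scaling of the arrays. With quantile normalization 21 of the 33 members (63.6%) were negative, against 59.3% of all genes, and the median was -0.03. With each array centred on its median, 27 (81.8%) were negative, against 68.0% of all genes, and the median was -0.13. Among the 13 bright members 9 were negative after quantile normalization and 13 after centring, where all bright genes gave 51.5% and 82.7%. The sign turned for Idh3a and Sdha under quantile normalization and for Pdhb, Pdk2, Suclg1 and Sdhc under centring. Members wholly below wt numbered 2 (6.06%) after quantile normalization, where all genes gave 9.51%, so the order of members and all genes turned round. After centring they numbered 11 (33.3%), where all genes gave 15.4%. At an unadjusted p under 0.05 and lower in Tg mice there was 1 member (3.03%) after quantile normalization, below the 5.26% of all genes, and 6 (18.2%) after centring, above their 9.72%. The counts also moved with single arrays. Without wt 1, 4 members in place of 10 were higher in Tg mice, and the count at an unadjusted p under 0.05 was 0 without Tg 3, without wt 1 or without wt 2, and 1 without Tg 1 (Me3, higher).

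The arrays differed in how the members lay as a group. Among the 6 arrays, wt 2 had the highest signal for 15 of the 33 members and the lowest for 1, and Tg 3 had the lowest for 11 and the highest for 1. Over all 13854 genes wt 2 was also most often highest (2925) and Tg 3 most often lowest (2839), but less clearly. There wt 1 came close, highest for 2903 genes and lowest for 2694. The mean over the members of each array's log2 deviation was 0.082 on wt 2, 0.048 on Tg 2, 0.028 on wt 3, -0.025 on wt 1, -0.045 on Tg 1 and -0.088 on Tg 3. Tg 2 and wt 1 thus lay on the side of the other group. Over all genes this mean was 0.019 on wt 2, 0.014 on Tg 2, 0.013 on wt 3, 0.0073 on wt 1, -0.019 on Tg 3 and -0.034 on Tg 1. Tg 2 thus lay on the wt side there too, while wt 1 did not lie on the Tg side. wt 2 is an array with a high 3' 18S control signal and the highest Pcx 3' to 5' ratio, and Tg 3 is the array with the low choroid plexus markers. On wt 1, where that 18S signal was highest, the mean over the members was negative. Without wt 2 the median log2 fold change of the members was -0.02, and without Tg 3 it was -0.03.

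Other genes next to the cycle gave a similar count. Of 30 listed enzymes, assembly factors and carriers that exchange metabolites with the cycle, 25 were measured, 17 lower and 8 higher in Tg mice, with a median log2 fold change of -0.04. limma called 0 of them. At an unadjusted p under 0.05 there were 4 of the 25, all lower, beside 4.97% of all genes. Lias makes the lipoyl group on which the pyruvate and 2-oxoglutarate dehydrogenase complexes depend. Its signals were 1572.1, 1560.2 and 1514.5 in Tg and 1778.9, 2066.8 and 1899.6 on the wt arrays, a log2 fold change of -0.30 (limma adjusted p = 0.344). Ldhb, the lactate dehydrogenase subunit common in neurons and heart, had 6462.9, 6617.6 and 5736.5 against 7124.7, 8598.9 and 8265.0, a log2 fold change of -0.35 (limma adjusted p = 0.248). Got2, the mitochondrial aspartate aminotransferase of the malate-aspartate shuttle, had 8350.8 ± 269 against 9517.6 ± 388 (log2 fold change -0.19). Oxct1, which lets the brain use ketone bodies, had 6200.3 ± 287 against 7122.0 ± 320 (log2 fold change -0.20). In these 4 and in Glud1, every Tg array lay below every wt array, which makes 5 of the 25, beside 8.81% of all genes. All of these 5 except Lias had a mean signal of at least 4000, where 17.9% of all genes lay wholly below wt. The share of all genes lower at an unadjusted p under 0.05 was also larger at that brightness. Whether the 25 exceed genes of like brightness was not tested.

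Glud1 itself had 5424.0 ± 268 in Tg and 6009.6 ± 368 in wt mice at its brightest probeset, a log2 fold change of -0.15 (SE 0.081, limma adjusted p = 0.595). All Tg values (5115.6 to 5595.7) lay below all wt values (5647.3 to 6383.3). Where the transgene's transcript ends is not given in the sources used here, so this probeset may miss it and is no check of the Tg label, on which every direction above depends.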

How the data were processed

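Total RNA of 3 Tg and 3 wt hippocampi was labelled and hybridised to 1 array each. The deposited values are linear MAS5 intensities (signals) that the authors' software had scaled to the same trimmed mean, with no other normalization. RMA values, on which the study's lists rest, were not analysed here. Groups were taken from the sample titles.

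Of 45101 probesets, 64 are controls. Leaving out the 31% of the others that were dimmest by mean log2 level kept 31076, none with a mean signal under 48.8. From log2(signal + 16), a scale that shrinks differences of dim probesets, Tg was compared with wt in limma 3.58.1 (R 4.3.3, moderated variances with an intensity trend), adjusted by the Benjamini-Hochberg method. Cyber-T took its prior spread from 101 neighbouring probesets, with a weight of 10. Figures were drawn with matplotlib 3.10.9. The number of arrays limits the precision, and p-values measure the spread between these mice alone.

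The members and the gene lists were chosen with earlier results of these data known. All members were named, and each array's value was given for members at an unadjusted p under 0.05 or without overlap, or for the one of lowest p in a role without any. Further probesets of a member were described at an unadjusted p under 0.05, without overlap, or with the sign opposite to the brightest. The arrays of Me3, Mdh1, Lias and Ldhb, and the dimmer Suclg2 probeset, were added after their values were seen. Tested on 31076 simulated probesets, limma called 16.4% of those set 1.3-fold apart, 56.7% at 2-fold and 92.4% at 4-fold, and 7 unchanged ones. The changed ones were drawn at random from all levels, and probesets of 1 level shared 1 normal spread, so these are not the shares for the members. Replicate numbers do not pair the arrays (correlations -0.0159, 0.00779 and 0.0333 between Tg and wt arrays of 1 number). The alternatives were added constants of 1 and 64, quantile normalization, median centring, no filter, only the brightest 50%, Cyber-T, limma with array weights, limma without trend, a replicate block, other probesets, and leaving out arrays. Promoter sequences are those of RefSeq (GRCm38.p6).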

Additional observations from a re-analysis of the deposited data

How the results depend on the processing

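No alternative called a member after adjustment: the count was 0 under every setting run. The number of members at an unadjusted p under 0.05 was 3. It was 1 with quantile normalization, 6 with median centring, 1 without the filter, 0 without limma's trend, 1 with Cyber-T and 1 with the replicate number as a block, and it ran from 0 to 4 when single arrays were left out. The replicate block moved no other count. At a 1.3-fold difference and an unadjusted p under 0.05, without the study's false discovery rate limit, 1 member was counted, against 0 without the trend, 0 when a gene's probesets were averaged, 0 with the second brightest probeset, and 0 to 1 without single arrays. Members without overlap numbered 5, against 2 with quantile normalization, 11 with median centring, 2 of 21 at the second brightest probeset, and 5 to 11 without single arrays, where fewer values leave more room for separation. The shares of all genes under these scalings stand in the report. After quantile normalization both member shares lay below them. Shares of all genes without single arrays were not counted. Members higher in Tg mice numbered 10, against 6 with median centring and 4 to 12 without single arrays. Pdha1 reversed, with a log2 fold change of 0.030 as the mean of its probesets and 0.16 at its second brightest. Among all members the sign turned in 10 of 33 with the mean (Sdhd to -0.59, Acly to 0.22, Idh2 to 0.18, Aco1 to -0.15, Sucla2 to 0.13) and in 8 of 21 at the second brightest (Sdhd to -1.26). Leaving out wt 1 and wt 2 together, chosen after seeing the data, leaves 1 wt array, which is assumed to vary like the Tg arrays: 0 members at an unadjusted p under 0.05, 0 with a 1.3-fold difference added and 16 without overlap. The median log2 fold change stayed negative throughout, from -0.13 with median centring to -0.02 without wt 2. The cause of these shifts was not tested. With 3 arrays a group, limma called 16.4% of the simulated probesets set 1.3-fold apart. These were drawn from all kept probesets, and the median SE was 0.17 for all genes and 0.095 for the members. The share is therefore not that of the members. A count of 0 alone does not show that differences of that size are absent, and the intervals give the range for each member.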
